A study of Mus musculus with 142 samples.

Results

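The Igf2-H19 and Kcnq1 domain was taken as every 50 kb window that lies within chr7:142300001-143600000 (mm10), which gave 26 of the 49264 windows of the table. The rule used position alone and no measured value. The domain is 1300 kb long, ends 1.84 Mb before the end of chromosome 7 and holds the imprinted genes H19, Igf2, Kcnq1, Kcnq1ot1, Cdkn1c and Phlda2. The cells were F121-9, a line of mouse embryonic stem cells (mESCs) from an F1 hybrid of the mouse subspecies musculus and castaneus, kept in 2i and LIF. Replication timing (RT) was measured by E/L Repli-seq, in which cells were labelled with BrdU for 2 h and sorted into early and late S phase, and is given as log2(E/L), the log2 ratio of early over late reads, so that a higher value stands for earlier replication. Reads were assigned to the 2 homologs by strain polymorphisms, and 66 libraries from 53 clones of 26 deletions were used.

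Every clone carried a CRISPR deletion in the Dppa domain of chromosome 16, and no clone without a deletion was among the samples used. The deletions removed early replication control elements A, B or C, binding sites of Oct4, Sox2 and Nanog in them (OSN), transcription start sites (TSS), the Z site, or parts of C (CL20k, CR11.8k, CR13.4k, CR14.6k). COSN123 was part of the deletion in 24 clones, namely those of COSN123 itself, A.B.COSN123, A.BOSN1.COSN123, A.BOSN12.BTSS.COSN123, A.BOSN12.COSN123, A.COSN123, AOSN.B.COSN123, AOSN.BOSN12.COSN123, AOSN.COSN123, BOSN1.COSN123, BOSN12.COSN123 and Z.AOSN.COSN123. These clones were made from a single COSN123 clone and so share a lineage. The other 29 clones carried A.COSN12, AOSN.COSN12, ATSS.BTSS.CTSS, BTSS, BTSS.CTSS, CL20k, COSN1, COSN1.2.8k, COSN12, CR11.8k, CR13.4k, CR14.6k, CTSS or Z.B.C. By the column names the deletion lay on the musculus homolog in 43 clones, on castaneus in 2 (CTSS clone C4 and CR11.8k clone 50) and on both homologs, in whole or in part, in 8.

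Imprinted genes are expressed from the homolog of only 1 parent. H19, a noncoding RNA expressed from the maternal homolog, and Igf2, a fetal growth factor expressed from the paternal homolog, share enhancers, and a control region between them that is methylated on the paternal homolog decides which of the pair is used. On the Kcnq1 side, the noncoding RNA Kcnq1ot1 starts inside Kcnq1 on the paternal homolog and silences neighbours there, among them the potassium channel gene Kcnq1, the cell cycle inhibitor Cdkn1c and Phlda2, a gene that restrains placental growth. Imprinted domains are known for homologs that replicate at different times in some cell types. Each subspecies stands for 1 parent in a hybrid line and the study writes the cross as castaneusXmusculus without saying which was the mother, so subspecies and parent of origin cannot be told apart in any difference below.

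Methylation at imprinted control regions falls on CpG dinucleotides, so the promoters of the members are shown with their CpGs in capitals, to place the starts whose windows are described below. RefSeq promoter sequences (GRCm38.p6, from 250 bases before to 50 after the start) were matched for 3 of the 6 members, all on the minus strand: Igf2 at chr7:142666767-142667066, Kcnq1ot1 at chr7:143296498-143296797 and Phlda2 at chr7:143502475-143502774.
Igf2: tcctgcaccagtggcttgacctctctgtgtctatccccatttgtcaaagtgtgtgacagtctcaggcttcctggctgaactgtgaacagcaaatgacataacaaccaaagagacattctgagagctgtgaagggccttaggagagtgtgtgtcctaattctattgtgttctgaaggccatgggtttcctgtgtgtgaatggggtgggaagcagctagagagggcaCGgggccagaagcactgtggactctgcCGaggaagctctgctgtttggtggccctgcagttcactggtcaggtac
Kcnq1ot1: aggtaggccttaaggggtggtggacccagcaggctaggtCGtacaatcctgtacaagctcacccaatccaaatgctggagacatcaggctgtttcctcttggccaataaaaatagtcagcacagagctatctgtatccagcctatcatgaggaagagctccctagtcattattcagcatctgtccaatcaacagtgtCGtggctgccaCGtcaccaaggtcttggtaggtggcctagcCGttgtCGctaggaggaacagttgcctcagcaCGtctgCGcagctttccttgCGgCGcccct
Phlda2: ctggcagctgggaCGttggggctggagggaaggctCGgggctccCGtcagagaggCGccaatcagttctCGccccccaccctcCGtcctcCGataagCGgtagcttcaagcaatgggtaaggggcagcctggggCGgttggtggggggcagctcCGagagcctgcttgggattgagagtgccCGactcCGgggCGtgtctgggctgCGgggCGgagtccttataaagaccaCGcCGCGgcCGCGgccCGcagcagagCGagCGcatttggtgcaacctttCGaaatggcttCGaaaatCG
The Igf2 promoter, 1 of 4 listed for this gene and the one at its annotated start, held 2 CpGs, Kcnq1ot1 held 9 and Phlda2 held 26, against a median of 7 over the 32851 promoters of the same length. At least as many CpGs were present in 85.9% of promoters for Igf2, in 45.8% for Kcnq1ot1 and in 16.9% for Phlda2. The RT windows are 50 kb wide and smoothed over 300 kb, so none of the values below resolves a promoter.

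The domain spanned a later and an earlier stretch, in the same order on both homologs. Their profiles parted at the left bound, where the first window had 0.14 on musculus and 0.54 on castaneus. Across the windows from H19 to Igf2 (chr7:142550001-142700000, 3 windows) RT averaged 0.16 ± 0.27 (SD, n = 53 clones) on musculus and 0.28 ± 0.24 on castaneus. Across the windows from Kcnq1 to Phlda2 (chr7:143100001-143550000, 9 windows) it averaged 1.04 ± 0.14 on musculus and 0.98 ± 0.14 on castaneus. The H19 to Igf2 stretch stood at the 55.3rd percentile of all 45145 windows tested on musculus and the 57.4th on castaneus, and the Kcnq1 to Phlda2 stretch at the 76.3rd and 74.1st. RT rose between them over the windows that hold Th and Ascl2, from a mean of 0.14 on musculus and 0.17 on castaneus in the window 108 kb beyond the Igf2 start to above 1 on musculus past Tspan32. The windows were rich in G and C and poor in repeats, with 47.8% GC and 21.1% soft-masked bases against chromosome 7 medians of 42.7% and 32.3%.

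**Figure D1:**
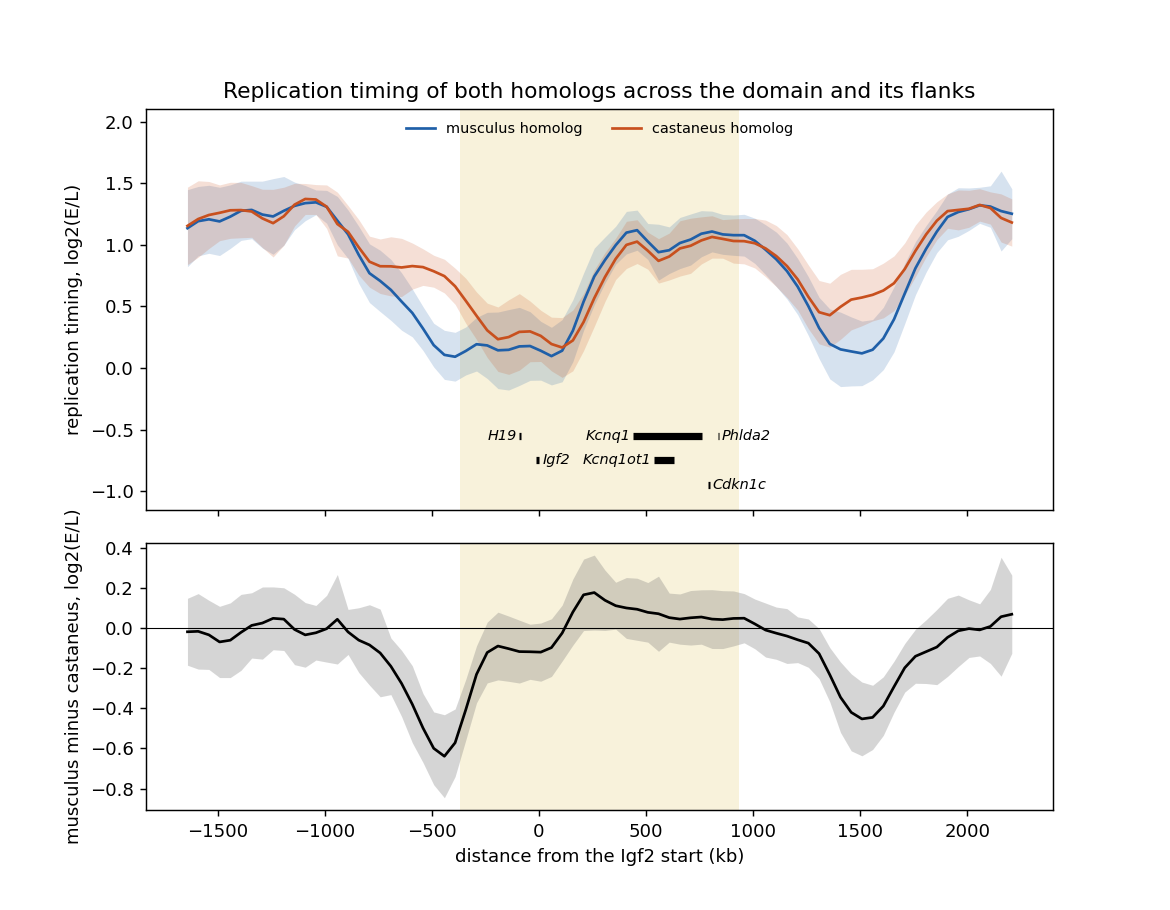
RT as log2(E/L) (upper panel) and the difference musculus minus castaneus (lower panel) against distance from the Igf2 start in kb, as the mean over clones with a band of 1 SD. The shaded domain lies between 2 stretches in which castaneus replicated earlier, by up to 0.64 on the left and 0.45 on the right, while inside it the 2 lines stay closer and cross once.

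The 2 homologs differed in opposite directions on the 2 sides of the domain. From H19 to Igf2 the castaneus homolog replicated earlier, with a difference musculus minus castaneus of -0.12 ± 0.13 (SD, n = 53) and 45 of 53 clones below 0. From Kcnq1 to Phlda2 the musculus homolog replicated earlier, by 0.06 ± 0.07, with 43 of 53 clones above 0. Each differed from 0 in a two-sided permutation test of 100000 sign changes over clones (p = 1e-05 for both, the smallest the resamples can give, adjusted p = 1.5e-05 over 3 stretches). The median size of a window difference was 0.12 from H19 to Igf2 and 0.05 from Kcnq1 to Phlda2, against 0.09 over all windows. By the mean size both sides were below all windows, at 0.119 and 0.0585 against 0.153. The difference between the 2 sides within a clone was -0.18 ± 0.14 and was below 0 in 46 of 53 clones (permutation p = 1e-05). Over all 26 windows the 2 directions cancelled to a mean of -0.0035 ± 0.0696, with 26 clones above 0 and 27 below (permutation p = 0.722). The sign of this mean turned with the centring of the profiles and with the clones and windows taken. It was 0.02 in clones without COSN123 (permutation adjusted p = 0.295) and -0.03 in clones with it (permutation adjusted p = 0.0311). Without the first 2 windows it was 0.02 (permutation p = 0.0172). Those windows are the most negative of the domain (-0.41 and -0.23), so the mean had to rise. They were left out after the data were seen, so this p is a description and not a test.

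**Figure D2:**
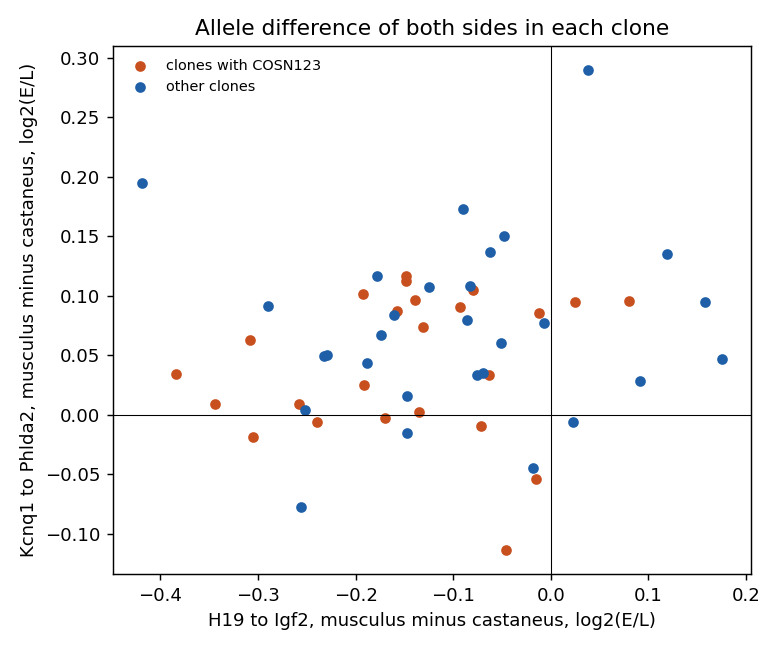
Each point is a clone, with its mean musculus minus castaneus difference in log2(E/L) from H19 to Igf2 on the horizontal axis and from Kcnq1 to Phlda2 on the vertical axis, coloured by whether it carries COSN123. In 36 of the 53 clones castaneus was earlier on the H19 side and musculus earlier on the Kcnq1 side, and 1 clone showed the reverse of both.

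H19 starts in the window chr7:142550001-142600000 as a gene on the minus strand (chr7:142575529-142578143). Its RT ran from -0.75 to 1.37 with a median of 0.13 on musculus, and from -0.25 to 1.53 with a median of 0.26 on castaneus. The ranges of the homologs overlapped widely across clones, but within a clone castaneus was the earlier one in 40 of 53. The difference musculus minus castaneus ran from -0.55 to 0.16 and had a mean of -0.12 with a standard error (SE) of 0.02 (limma across all windows, Benjamini-Hochberg adjusted p = 3.78e-06).

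Igf2 (chr7:142650766-142666816, minus strand), which is expressed from the other parental homolog than H19, behaved alike. Its window had RT between -0.77 and 0.63 on musculus, median 0.17, and between -0.49 and 0.70 on castaneus, median 0.27. castaneus was earlier in 41 of 53 clones, and the difference was -0.12 (SE 0.02, range -0.42 to 0.21, limma adjusted p = 6.64e-07). H19 and Igf2 lie closer together than the 300 kb smoothing span, so their windows are not separate measurements.

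Kcnq1 (chr7:143106362-143427042, plus strand) spans 7 windows. In the window of its start RT ran from 0.72 to 1.65 on musculus, median 1.11, and from 0.63 to 1.47 on castaneus, median 1.01. Here musculus was earlier in 43 of 53 clones, with a mean difference of 0.09 (SE 0.02, limma adjusted p = 0.000162). Kcnq1ot1 (chr7:143203458-143296549, minus strand), read from the opposite parental homolog, had RT between 0.62 and 1.40 on musculus, median 0.96, and between 0.58 and 1.39 on castaneus, median 0.86. The musculus homolog was earlier in 38 of 53 clones, by 0.05 on average (SE 0.02, limma adjusted p = 0.0117). The start windows of Kcnq1 and Kcnq1ot1 lie within 1 smoothing span too, so the sign they share is not a separate measurement.

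Cdkn1c (chr7:143458339-143461050) and Phlda2 (chr7:143501545-143503150), both on the minus strand and silenced by Kcnq1ot1 on the paternal homolog, lay in the earliest part of the domain. The Cdkn1c window ran from 0.65 to 1.45 on musculus, median 1.10, and from 0.63 to 1.39 on castaneus, median 1.06. Its difference of 0.04 (SE 0.02) did not pass the test (limma adjusted p = 0.0633), and musculus was earlier in 35 of 53 clones. The Phlda2 window ran from 0.69 to 1.45 on musculus, median 1.07, and from 0.69 to 1.43 on castaneus, median 1.01. Its difference of 0.04 (SE 0.02) did not pass either (limma adjusted p = 0.0811), with musculus earlier in 31 of 52 clones. Both passed, at 0.06, when each clone's differences were centred on the rest of chromosome 7 (limma adjusted p = 0.00624 and 0.00948).

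In order of the mean RT of both homologs the members ranked Cdkn1c (1.09 ± 0.15, SD over clones), Kcnq1 (1.07 ± 0.15), Phlda2 (1.06 ± 0.14), Kcnq1ot1 (0.93 ± 0.18), H19 (0.23 ± 0.30) and Igf2 (0.20 ± 0.21). Of neighbours in this order, only 2 pairs had a mean difference that passed (permutation test of sign changes over clones, adjusted over the 5 pairs). They were Phlda2 over Kcnq1ot1 by 0.13 ± 0.18 (SD, above 0 in 42 of 52 clones) and Kcnq1ot1 over H19 by 0.70 ± 0.26 (51 of 53), with adjusted p = 5e-05 for both. For Cdkn1c over Kcnq1, Kcnq1 over Phlda2 and H19 over Igf2 the permutation adjusted p was 0.572, 0.877 and 0.371. The order was taken from the same values, so these p-values describe the ranking and do not test it. The starts of Phlda2 and Kcnq1ot1 lie within 1 smoothing span.

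The other imprinted genes of the cluster were read by the window of their annotated start. Of 9 genes expressed from the maternal homolog (H19, Kcnq1, Cdkn1c, Phlda2, Ascl2, Cd81, Tssc4, Slc22a18, Nap1l4), which share 6 windows, 4 passed the test with musculus earlier (Kcnq1, Ascl2, Cd81, Tssc4), H19 passed with castaneus earlier, and 4 did not pass. Over all windows tested, 60.0% passed, 26.9% with musculus earlier and 33.1% with castaneus earlier, so 5 of 9 is near the share of all windows. Of 3 genes expressed from the paternal homolog, Igf2 and Ins2 passed with castaneus earlier and Kcnq1ot1 with musculus earlier. The median difference was 0.04 over the first list, -0.10 over the second and 0.05 over 5 neighbouring genes outside these lists, of which Th, Trpm5 and Cars passed with musculus earlier and Mrpl23 and Ctsd with castaneus earlier. Ascl2, a transcription factor gene of the placenta, had 0.14 (SE 0.02, limma adjusted p = 6.12e-08) and Ins2, an insulin gene, -0.10 (SE 0.02, limma adjusted p = 2.9e-05). Ins2 as annotated (chr7:142678656-142743381) also overlaps the Igf2 window, and its start falls in the next one. It is thus not a separate reading from Igf2. Among the neighbours Th, which encodes the enzyme that starts catecholamine synthesis, had 0.18 (SE 0.03), and Ctsd, a lysosomal protease gene, -0.23 (SE 0.02). Genes of both lists and the neighbours had the sign of the side on which they lie. The windows are smoothed, Trpm5 shares that of Cd81 and Tssc4, and the Cars start lies just outside the domain. These signs are thus not separate readings.

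Over all windows of the domain, 23 of 26 passed the limma test at an adjusted p under 0.05, against 60.0% of the 45145 windows tested. With musculus earlier 14 of 26 passed, where 26.9% of all windows did, and with castaneus earlier 9 of 26, where 33.1% did. The 3 that did not pass were those of Cdkn1c and Phlda2 and the one 108 kb beyond the Igf2 start, the last below 0 (-0.03, limma adjusted p = 0.277). Asked for a size of 0.25 as well, 1 of 26 windows passed against 19.3% of all windows, and for a size of 0.5, 0 of 26 against 5.44% (limma; 24 of 26 had an unadjusted p under 0.05, and 0 of these reached a size of 0.5). The window past 0.25 was the first of the domain (chr7:142300001-142350000, which holds part of Ifitm10), at -0.41 (SE 0.02), where castaneus was earlier in all 53 clones. Neighbouring windows share reads through the smoothing, so these counts are not counts of separate sites. The median size of the difference was 0.10 in the domain and 0.09 over all windows, and its median SD between clones was 0.15 and 0.19. The mean size was 0.107 in the domain and 0.153 over all windows.

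**Figure D3:**
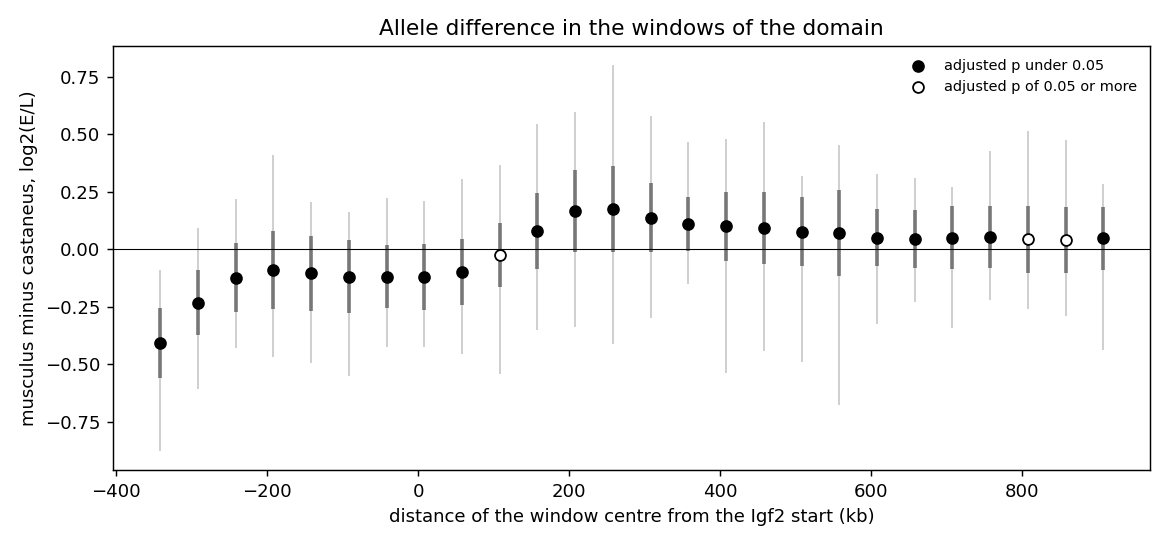
Mean difference musculus minus castaneus in log2(E/L) of each of the 26 windows against the distance of its centre from the Igf2 start in kb, with the SD between clones (thick bars) and the range over clones (thin bars). Filled points passed at an adjusted p under 0.05. The means rise from -0.41 in the first window to -0.09, stand near -0.12 around H19 and Igf2, turn sign between the windows at 108 and 158 kb, peak at 0.18 in a Th window and settle near 0.05 over Kcnq1ot1 and Phlda2.

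**Figure D4:**
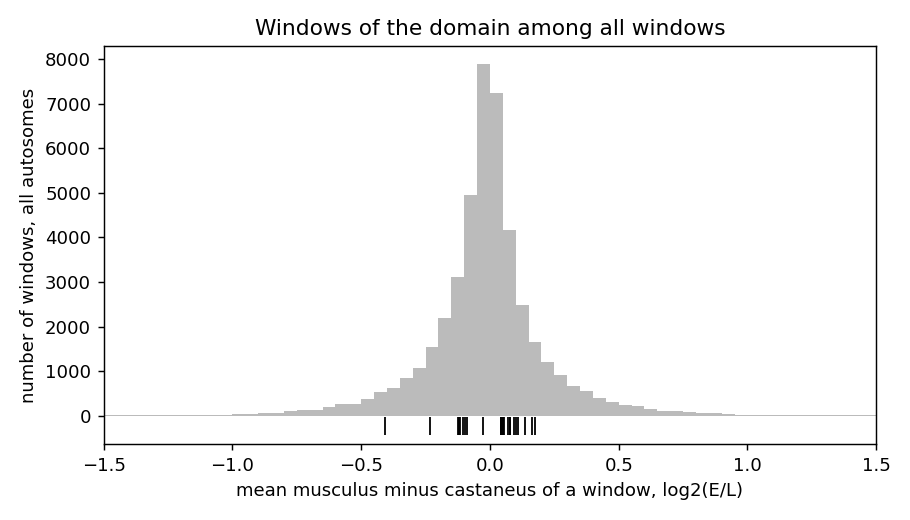
Histogram of the mean difference musculus minus castaneus in log2(E/L) over all windows tested, in bins of 0.05, with the 26 windows of the domain as ticks below the axis. All but the first window of the domain lie within 0.25 of 0.

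Within the domain the largest window differences lay at its left bound and on the slope toward Kcnq1. The later stretch around H19 and Igf2 was bounded, at RT 0.5, by a left edge at 142.06 Mb on musculus and 142.349 Mb on castaneus. Its mean shift was -290 kb ± 101 (SD, n = 49 clones), with the musculus edge to the left in all 49. The right edge lay at 142.863 Mb on musculus and 142.897 Mb on castaneus, a mean shift of -33.9 kb ± 42.2 (n = 52), with the musculus edge to the left in 45 of 52 clones. Both shifts differed from 0 (permutation test of sign changes, adjusted p = 1e-05 for each). Crossings were searched over a fixed span of windows on either side of Igf2. A clone was left out where either homolog had no crossing of 0.5 in that span, which removed 4 clones on the left and 1 on the right. The later stretch was 805 kb ± 170 wide on musculus and 549.8 kb ± 133.9 on castaneus, and wider on musculus in 47 of 48 clones. The left edge of musculus lies outside the domain. On musculus the stretch took in left-flank windows with RT of 0.09 and 0.11, at -392 and -442 kb from the Igf2 start. The left shift and the width thus include the difference of the left flank and are not particular to H19 and Igf2.

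The flanks of the same length had larger differences than the domain, both with castaneus earlier. The left flank averaged -0.14 ± 0.06 (SD, n = 53) and the right flank -0.13 ± 0.07, and the domain lay above them by 0.14 and 0.13 within clones (permutation test, adjusted p = 1.33e-05 for each). These are signed means, and the sides of the domain cancel in its mean. The mean size of a window difference was 0.1505 in the left flank and 0.1442 in the right, against 0.107 in the domain. Neither flank exceeded the 0.153 of all windows tested. The strongest windows were chr7:142200001-142250000 on the left at -0.64 ± 0.21, a stretch of keratin-associated protein genes, and chr7:144150001-144200000 within Shank2 on the right at -0.45 ± 0.18. Of 2 other imprinted domains, Ube3a to Snrpn on chromosome 7 (19 windows) replicated late on both homologs (-0.85 on musculus and -0.84 on castaneus) and had a difference of -0.02 ± 0.14. The domain mean minus that of this stretch was 0.01 ± 0.15 (permutation adjusted p = 0.583), a comparison of 2 means near 0 that does not show like differences, since the sides of the domain cancel. The mean size of a window difference was 0.107 in the domain and 0.0815 from Ube3a to Snrpn, against 0.153 over all windows tested. Dlk1 to Mirg on chromosome 12 (6 windows) replicated earlier on castaneus by more, -0.23 ± 0.17 with 48 of 53 clones below 0, and the domain lay 0.23 above it (permutation adjusted p = 1.33e-05).

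Clones differed more in the level of RT than in the difference between homologs. From H19 to Igf2 the mean level of both homologs ran from -0.58 in AOSN.BOSN12.COSN123 clone D6 to 1.01 in ATSS.BTSS.CTSS clone A1, with a median of 0.20 and an SD of 0.25. The next lowest and next highest clones stood at -0.10 and 0.83. The 2 homologs moved together, with Pearson's r = 0.88 over the 53 clones, whose values share cells, sorting and sequencing. From Kcnq1 to Phlda2 the level ran from 0.74 to 1.30 with an SD of 0.13 (r = 0.88 between homologs). The median SD of the level of a window was 0.25 on the H19 side and 0.18 on the Kcnq1 side, against 0.18 over all windows tested.

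Repeat libraries gave the error of a single clone. In 11 clones with 24 libraries, the SD of the difference within a clone was 0.09 from H19 to Igf2 and 0.10 from Kcnq1 to Phlda2, against 0.13 and 0.07 between clones. On the Kcnq1 side clones thus differed from each other no more than libraries of a clone did. Separate cultures are stated for the COSN123 clone, and the other repeats may be technical. The 4 cultures of the COSN123 clone A10 ran from -0.22 to 0.03 on the H19 side and from -0.11 to 0.13 on the Kcnq1 side.

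**Figure D5:**
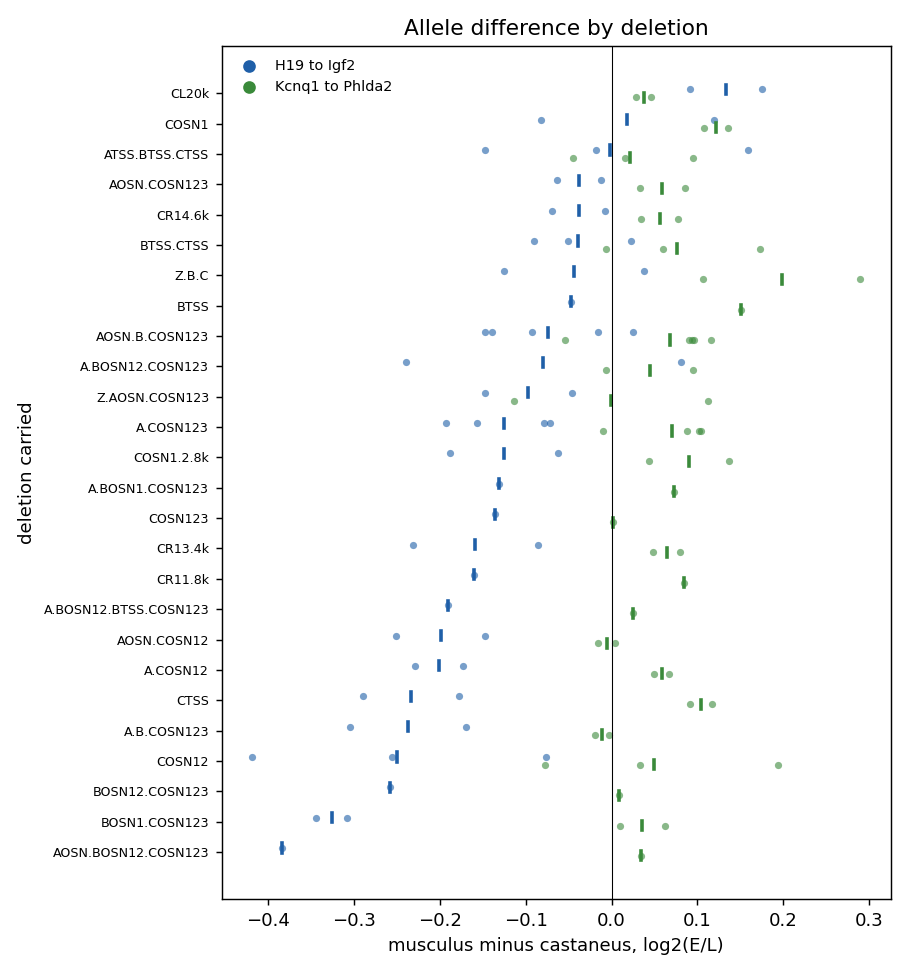
Difference musculus minus castaneus in log2(E/L) by deletion, from H19 to Igf2 (blue) and from Kcnq1 to Phlda2 (green). Points are clones and bars the mean of a deletion. The H19 side lies below 0 in 24 of 26 deletions and the Kcnq1 side above 0 in 23 of 26.

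Across deletions the mean on the H19 side ran from -0.38 in AOSN.BOSN12.COSN123 (1 clone) to 0.13 in CL20k, where both clones were above 0 (0.09 and 0.18). It was below 0 in 24 of 26 deletions, the other exception being COSN1 at 0.02. On the Kcnq1 side the mean ran from -0.01 in A.B.COSN123 to 0.20 in Z.B.C and was above 0 in 23 of 26. A limma F test over the 19 deletions with at least 2 clones (46 clones) called 4 of 26 windows, against 11.3% of all 30214 windows tested. They were the windows of Syt8 and Tnni2 and of Lsp1 and Tnnt3 (F = 4.17 and 3.6, adjusted p = 0.00464 and 0.0109). The others were the adjacent windows of Igf2 and of the annotated Ins2 start (F = 3.46 and 3.63, adjusted p = 0.0135 and 0.0104). The 2 clones with the deletion on castaneus had -0.18 and -0.16 on the H19 side and 0.12 and 0.08 on the Kcnq1 side, each with the sign of the mean over the other clones. Against the 43 clones with the deletion on musculus they differed by less than the spread between clones (exact permutation test over 990 regroupings, adjusted p = 0.926 on each side).

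Clones with COSN123 and the other clones differed in 2 of 26 windows (limma, adjusted p under 0.05), where 0.288% of all 44761 windows tested did. In the window of Syt8 and Tnni2, genes of vesicle traffic and of muscle, the difference musculus minus castaneus was -0.21 in the 24 clones with COSN123 and -0.05 in the 29 others (limma adjusted p = 0.0239). In the next window, of Lsp1 and Tnnt3, it was -0.19 and -0.01 (limma adjusted p = 0.019). Both lie between the Ctsd window and that of H19, where a further window, of Mrpl23, did not pass (limma adjusted p = 0.153), nor did those of the 6 members. The means over the whole domain, -0.03 ± 0.06 with COSN123 and 0.02 ± 0.08 without, did not pass (permutation adjusted p = 0.0979), nor did -0.15 ± 0.12 against -0.10 ± 0.14 from H19 to Igf2 and 0.04 ± 0.06 against 0.07 ± 0.07 from Kcnq1 to Phlda2 (permutation adjusted p = 0.158 for both). With deletions in place of clones as units, 0 of 26 windows passed in limma (9 had an unadjusted p under 0.05), while the means over the whole domain and the Kcnq1 side did pass (-0.06 and -0.04, permutation adjusted p = 0.03 for each). Carrying COSN123 and descending from its clone cannot be told apart. The paper made COSN12 and COSN123 in a COSN1 line, so the 2 groups are not fully separate lineages.

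Over clones, the protein-coding genes outside chromosome 7 whose allele difference was most like that of the domain mean were Tnfaip8l3 and Tas2r134 (Pearson's r = 0.63 for both), Fam213a (0.62), Ccbe1 (0.61) and Elmod1 (0.59), of 12096 compared over 51 to 53 clones. This is a description of the highest of many values over libraries that are shared by both measures. Tnfaip8l3 and Elmod1 lie within 1 smoothing span on chromosome 9 and are not separate readings. The loci of stem cell genes replicated early on both homologs, at 1.17 and 1.19 for Pou5f1 on musculus and castaneus, 1.24 and 1.22 for Sox2, 1.06 and 1.10 for Nanog and 0.98 and 0.73 for Zfp42. Dppa4, in the domain from which the deletions were made, stood at 0.38 on musculus and 0.90 on castaneus. Timing does not show whether any of these genes, or the imprinted members, were expressed or from which homolog.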

How the data were processed

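Per the methods, the authors trimmed the reads with TrimGalore, aligned them with bowtie2 to mm10 with strain polymorphisms masked, split them by homolog with SNPsplit, and removed duplicates with Samtools. The deposited values are log2 ratios of early over late reads in 50 kb windows. The authors counted the reads with bedtools, then scaled the ratios, normalized them between profiles by quantiles and smoothed them by loess over 300 kb. Versions were not given in the sources used here. No counts were at hand, so read depth is unknown here and the error of a value is its spread over clones. Quantile normalization gives every profile 1 distribution before the smoothing, so a shift of a whole homolog can be removed by it and cannot be judged here. The smoothed values still differed slightly, with a median over all windows tested of -0.0872 on musculus and -0.0593 on castaneus. A homolog had a value in 73.8% to 93.8% of windows, and every window of the domain had values on both homologs in at least 52 clones. In 13 libraries a chromosome other than 7 was empty on a homolog.

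All 138 columns were used. They were assigned to 66 libraries. For 3 of these each homolog had repeated columns, which were assumed to be repeat runs and averaged. A further 10 samples (5 libraries) of the labels were not analysed here. The musculus homolog is that of strain 129SvImJ and the castaneus homolog that of CAST EiJ, which the column headers call genome1 and genome2. The difference musculus minus castaneus was taken within each library and averaged over the libraries of a clone, and clones were the replicates. They are separate clones of 1 parental line, so p-values measure the spread between clones of that line. Some share further ancestry: per the paper, COSN12 and COSN123 were made in a COSN1 line and BTSS.CTSS in a CTSS background. The tests treated all clones as independent, so their p-values can be too small. No 2 libraries held the same values. Differences were fitted against 0 in windows with at least 20 clones in limma 3.58.1 (R 4.3.3) and adjusted by the Benjamini-Hochberg method over all windows. Single values were tested with 100000 two-sided sign changes or regroupings. On simulated clones, the fit was checked to recover known shifts. For 11 clones, with 24 libraries, the sample titles give replicate numbers 1 and 2. These numbers did not pair the libraries, since the profile of replicate 1 minus replicate 2 correlated over 0.1 in only 1 of 55 pairs of clones (median r = 0.0017).

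Genes were placed with GENCODE vM21, by the window of the annotated start. The genes named were the 6 members, a list of other imprinted genes of the cluster, 5 neighbours and the 5 genes most similar over clones. The members, by their position, and the lists were chosen with earlier results of these data known. The comparison of the 2 sides, the edges and the levels were added after the data were seen. So were the settings without the first 2 windows and with only clones that had every autosome. Alternatives were other units, centrings, thresholds and subsets of clones.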

Additional observations from a re-analysis of the deposited data

Results flagged for a closer look

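In groups of 4 to 10 clones, or cultures of a clone, the sample farthest from the others was singled out where its gap took up an unusually large share of the range, which chance does in about 1 group in 20. In all, 9 such groups of values were looked at. From Kcnq1 to Phlda2 a clone of A.COSN123 stood apart at -0.0095 (4 clones) and a clone of AOSN.B.COSN123 at -0.054 (5 clones), both below 0 while the other clones of these deletions were above 0. From H19 to Igf2 a culture of the COSN123 clone A10 stood apart at 0.0347, above the other 3 cultures. Clones with COSN123 differed from the other clones by -0.17 in the window of Syt8 and Tnni2 and by -0.19 in that of Lsp1 and Tnnt3 (limma, musculus minus castaneus). With each clone left out in turn the mean from Kcnq1 to Phlda2 stayed between 0.0551 and 0.0628.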

How the results depend on the processing

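Of 134 alternative values, the means from H19 to Igf2 kept castaneus earlier and passed the test in every setting tried, between -0.17 and -0.10, and the difference between the 2 sides lay between -0.19 and -0.17. From Kcnq1 to Phlda2 the mean stayed above 0, at 0.01 to 0.08. Leaving out each clone in turn gave -0.12 to -0.11 on the H19 side, 0.06 on the Kcnq1 side and -0.0064 to 0.0001 over the whole domain, and leaving out each deletion gave -0.0086 to 0.002 over the whole domain. The mean over the whole domain, -0.0035, turned above 0 without COSN123 clones (0.015) and with profiles centred on their median (0.012) or also scaled (0.0079). It was also above 0 when centred on the rest of chromosome 7 (0.0165), as a median over windows (0.0109) and in clones with every autosome (0.002). Without the first 2 windows, a setting added after the data were seen that removed the most negative values, it was 0.0229 (permutation p = 0.0172). In COSN123 clones alone it was -0.0258 (permutation adjusted p = 0.0311). With deletions as units, COSN123 deletions differed from the others by -0.0564 over the whole domain and by -0.0427 on the Kcnq1 side (permutation adjusted p = 0.03 for each), where clones as units had not passed. Of the 2 windows in which COSN123 clones differed from the others, 1 passed with differences centred on the rest of chromosome 7. Windows past a size of 0.25 numbered 2 in place of 1 in COSN123 clones alone. The causes were not tested.

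The replicate numbers did not pair the libraries. With the replicate block over numbers 1 to 4 weighted alike, the Kcnq1 side gave 0.0096 (permutation p = 0.875), where numbers 3 and 4 are held by 1 library each. With a block over numbers 1 and 2 it gave 0.0539 (permutation p = 0.0141), and with no block 0.0465 (permutation p = 0.0251). The H19 side gave -0.17, -0.14 and -0.15 in these fits. Depth is unknown, so what it limits could not be given. The 300 kb smoothing limits the resolution to stretches of several windows.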
